A study of Nannochloropsis oceanica with 10 samples.

Results

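Genes for histones and for the proteins that place, modify and move nucleosomes were followed in *Nannochloropsis oceanica*, a unicellular marine heterokont alga. A gene was taken as a member where the description of its best protein match in the deposited tables held one of these words: histone, chromatin, nucleosome, SWI/SNF, SNF2, bromodomain, chromodomain, SET domain, sirtuin or jumonji. Descriptions of condensin or of structural maintenance of chromosomes were left out. The rule used no measured value and gave 71 of 10363 genes. It rests on similarity to proteins of other organisms, mostly the close relative *Nannochloropsis gaditana*, so the roles given here are those of the matches.

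The study followed WT (strain IMET1) and *hlr1*, 1 hygromycin-selected insertion line of the same strain with a defect in *HLR1*, an antenna protein of photosystem I, and asked how the transcriptomes of these strains respond to high light (HL). Cells grown at 50 µmol photons per square metre and second were kept in the dark overnight and then moved to 200 µmol. Samples were taken before the light came on and at 1, 6, 96 and 144 h of HL, which gave 10 groups of 3 libraries from cultures that the design text calls biologically independent. The labels give a light and dark cycle for the inoculum, the methods continuous light. No culture was kept in the dark beside the illuminated ones, so HL, the end of the night and the elapsed hours cannot be told apart. Because *hlr1* is 1 line, a second change in its genome cannot be told apart from the defect in *HLR1*.

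In eukaryotes DNA is wound around an octamer of H2A, H2B, H3 and H4, and the linker histone H1 binds between octamers. Replicating cells need new histones, which chaperones such as CAF-1 and ASF1 (H3 and H4) and NAP1 (H2A and H2B) carry to the DNA, while variants such as H2A.Z (named H2A.V in animals) and the centromeric H3 (CENP-A) mark particular regions. Acetyltransferases, deacetylases and methyltransferases modify the histone tails, bromodomain proteins bind acetylated tails, and SNF2-type ATPases slide, evict or exchange nucleosomes.

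The 30 libraries held 4424898 to 7019039 counts. Levels are given in CPM (read counts relative to the library total, with 1 TMM scaling over all libraries). *HLR1* (*g4928*), the gene hit in the mutant, was at 1546, 1580 and 2019 CPM in the 3 WT dark libraries and at 546, 1108 and 973 in *hlr1*. After 6 h it was at 1554, 1520 and 1429 CPM in WT and at 479, 497 and 495 in *hlr1*, and after 144 h at 1272, 1259 and 1132 against 573, 560 and 588. The WT was above *hlr1* in every library at these times and after 96 h (737 to 781 against 603 to 632), whereas after 1 h the groups overlapped (909 to 960 against 717 to 910). Libraries of the dark and of 1 h varied far more than later ones. The median SD of the members was 18.0 to 39.96% of the mean in the 4 early groups and 6.11 to 11.5% in the 6 later ones, and up to 9 members had no count in an early library against at most 1 in a later one. Replicate c of the WT dark group and replicate a of the *hlr1* dark group correlated least with their replicates (r of log2 CPM across genes 0.77 to 0.83), as did replicate b of *hlr1* at 1 h (0.79 and 0.84). The number of calls in comparisons with the dark or 1 h is therefore also given without them, with the named members that lose or gain a call.

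The members fell into 12 histones, 3 histone chaperones, 6 acetyltransferases or subunits of their complexes, 10 deacetylases or their partners, 13 methyltransferases or their partners, 10 SNF2-type remodellers or their partners, 6 bromodomain proteins and 11 others. In the last group the remaining annotation pointed elsewhere, as for *g5058*, whose match is called a deacetylase but whose conserved domain is that of a glycerol channel. Together the members took 0.496 to 0.838% of the counts of a library.

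The 12 histone genes comprised 1 for H1 (*g10116*), 2 for H2A (*g4682*, *g10111*), 1 for an H2A.V-like variant (*g7083*), 2 for H2B (*g4683*, *g2389*), 2 for H3 (*g8108*, *g10112*), 1 H3-like gene of unusually long span whose best match is in a plant (*g5195*), 1 for a CENP-A-like H3 (*g7513*) and 2 for H4 (*g8107*, *g10115*). Several lie side by side. On scaffold 140, *g4682* (451469 to 452403) and *g4683* (452898 to 453452) are transcribed away from each other with 494 bp between them. On scaffold 271, *g8107* (588860 to 590024) and *g8108* (590640 to 591277) follow each other on the same strand at 615 bp. On scaffold 354 the divergent pairs *g10111* (360298 to 360750) with *g10112* (361602 to 362447) and *g10115* (367493 to 368697) with *g10116* (368832 to 370866) are separated from each other by 5045 bp with 2 other genes. These are positions of the deposited tables, and the sources used here do not name their genome build. How alike the copies of a histone are in sequence was not checked. If the 2 H3 genes, the 2 H4 genes or other copies are near-identical, their reads may have been shared or dropped during mapping. The level of a single copy is therefore uncertain.

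Averaged over all libraries and per kilobase of gene span (introns included), the histone genes at the highest level were the H2B gene *g4683* (290 CPM per kb), the H3 gene *g8108* (266) and the H2A gene *g10111* (257), and the lowest was the H1 gene *g10116* (11.6). The other copies of the same histones were far lower, with 68.8 CPM per kb for the H2B gene *g2389*, 97.4 for the H3 gene *g10112* and 45.9 for the H2A gene *g4682*. Of the H4 genes, *g10115* was at 181 CPM per kb and *g8107* at 72.0. In WT at 6 h the order was led by *g7083* (552 CPM per kb), which was at 62.6 in the dark.

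**Figure D1:**
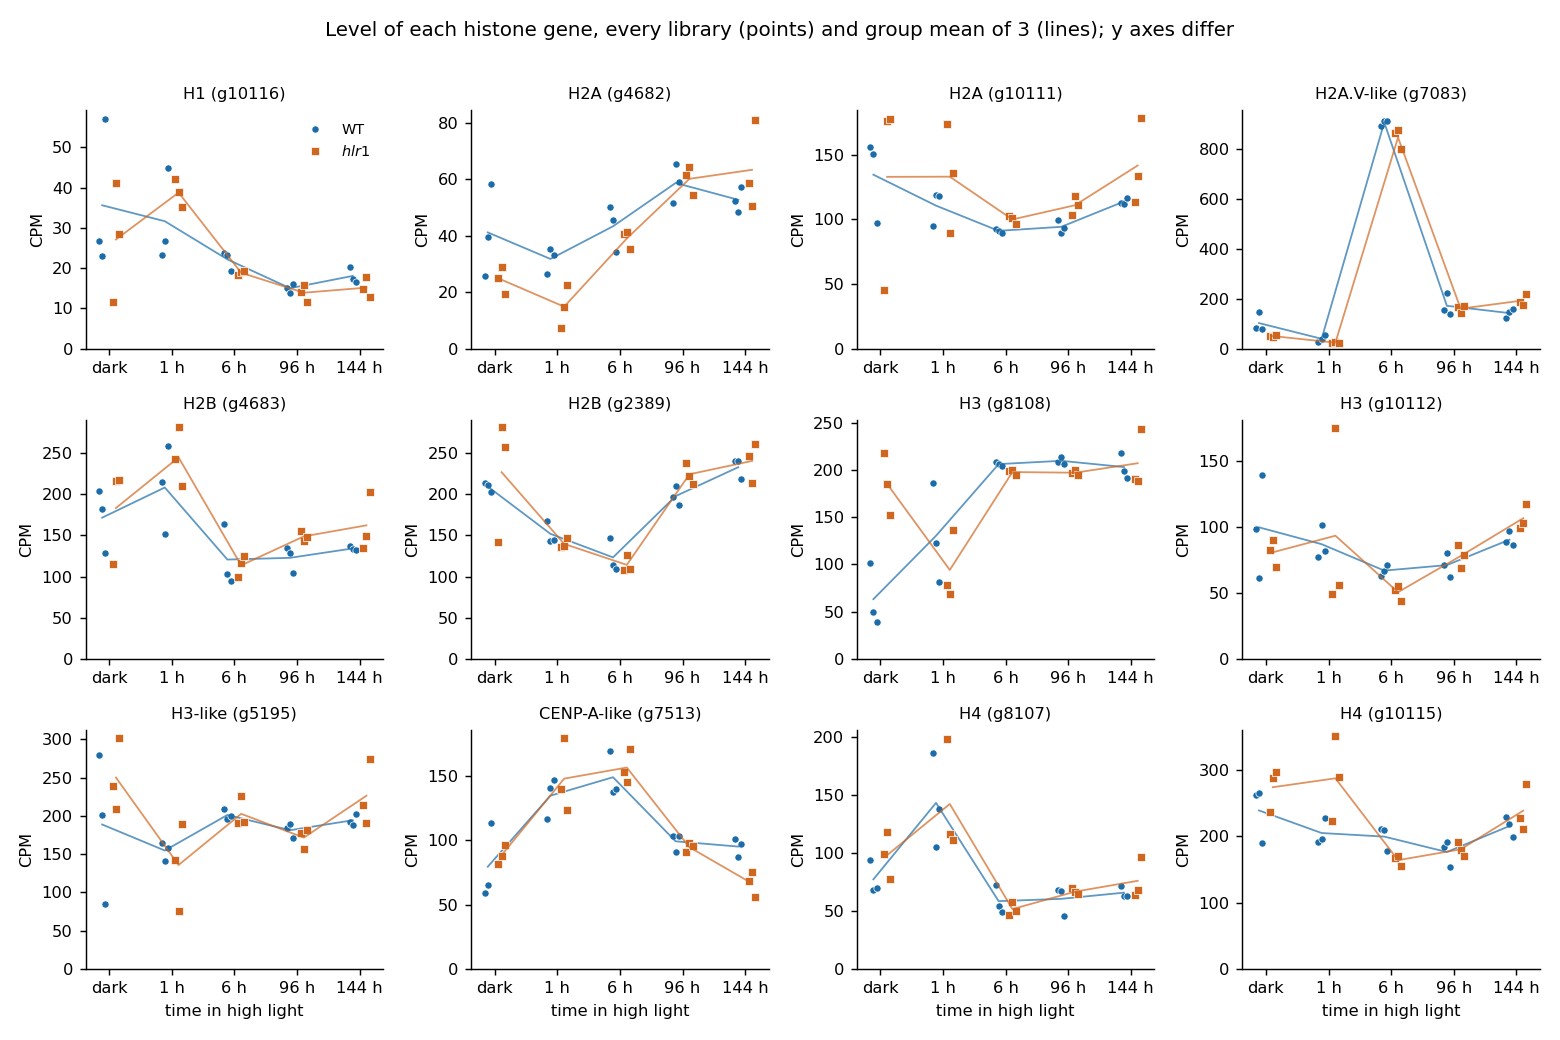
Level of each of the 12 histone genes in CPM (y axis, from 0, own scale per panel) against time in the dark, 1, 6, 96 and 144 h (x axis) for WT (blue circles) and hlr1 (orange squares), with 1 point per library and lines through the means of 3. The H2A.V-like gene g7083 stands at 799 to 912 CPM in the 6 libraries of 6 h and at most at 222 in the other 24.

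The clearest change among the members was that of the H2A.V-like variant *g7083* (scaffold 252, 192222 to 193859), which stood high at 6 h of HL in both strains and low at the other times. In WT it was at 82.8, 147 and 78.3 CPM in the dark, at 26.4, 37.4 and 55.7 after 1 h and at 892, 911 and 912 after 6 h. It was then at 154, 222 and 139 CPM after 96 h and at 124, 145 and 159 after 144 h. In *hlr1* it was at 51.0, 46.1 and 55.0 CPM in the dark, at 22.1, 28.1 and 22.6 after 1 h and at 862, 874 and 799 after 6 h, followed by 165, 144 and 171 after 96 h and 187, 176 and 217 after 144 h. No library of 6 h overlapped with one of another time. From the dark to 6 h its level rose by a log2 fold change of 3.11 (SE 0.29) in WT and 4.35 (SE 0.15) in *hlr1*, with adjusted p = 5.79e-04 and 5.31e-05 in edgeR's quasi-likelihood test with Benjamini-Hochberg adjustment over all genes. From 6 h to 96 h it fell by 2.43 (SE 0.14) and 2.41 (SE 0.07) on the log2 scale, with adjusted p = 1.70e-09 and 6.36e-20. The rise did not pass the test of a difference between strains (log2 difference *hlr1* minus WT 0.93, SE 0.31, edgeR adjusted p = 1), nor did the fall (0.00, SE 0.16, adjusted p = 0.999). Such differences come from a fit of all 4 groups with its own scaling, so they need not equal the gap between the 2 changes printed. The rise and the fall were each called in both strains under every alternative tried.

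Relative to the other H2A genes the change was as plain. Per kilobase of span, *g7083* made up 12.0 to 19.3% of the summed level of the 3 H2A-type genes in the WT dark libraries, 6.33 to 10.3% after 1 h, 67.8 to 70.4% after 6 h, 24.0 to 33.6% after 96 h and 19.9 to 23.3% after 144 h. In *hlr1* the shares were 6.29 to 19.8%, 3.32 to 7.45%, 66.0 to 66.7%, 21.1 to 25.6% and 21.6 to 26.7%. This ratio is formed within a library and does not depend on the scaling between libraries. Its direction shows unequal change of the genes, not that the other 2 did not change.

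The other core histones were not among the genes that rose at 6 h in both strains. For the 7 genes *g4682*, *g10111*, *g4683*, *g2389*, *g10112*, *g8107* and *g10115*, the log2 fold change from dark to 6 h lay between −0.79 and 0.01 in WT and between −0.67 and 0.96 in *hlr1*, none of them over 2-fold. Of these, *g2389* (H2B) passed the adjusted p in WT (−0.79, SE 0.18, adjusted p = 0.0200) and *g10115* (H4) in *hlr1* (−0.44, SE 0.11, adjusted p = 0.0278). With library totals in place of TMM the sign turned for *g10111*, *g10112*, *g10115*, *g8107* and *g4683* in WT and for *g10111* in *hlr1*, so no direction is read from them. Without replicate a of the *hlr1* dark group, *g2389* was called lower in *hlr1*.

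The H2B gene *g2389* lay at 214, 211 and 203 CPM in the WT dark libraries, at 147, 114 and 109 after 6 h and at 197, 210 and 187 after 96 h. In *hlr1* it lay at 142, 282 and 257, at 108, 126 and 109, and at 239, 222 and 213 CPM. With TMM scaling the mean of *g2389* was lowest at 6 h in both strains, and its groups of 6 h and 96 h did not overlap. Relative to library totals alone, its mean was lowest at 1 h in both strains, and its WT libraries of the dark and of 6 h overlapped. Between these times it passed the adjusted p at under 2-fold in WT (log2 fold change 0.65, SE 0.11, adjusted p = 2.37e-04) and in *hlr1* (0.96, SE 0.08, adjusted p = 5.21e-11). The H2A gene *g4682* also passed the adjusted p between 6 h and 96 h in both strains (0.40, SE 0.15, adjusted p = 0.0430 and 0.61, SE 0.11, adjusted p = 3.69e-05).

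The H1 gene *g10116* was at 19.3 to 23.9 CPM in WT and 18.2 to 19.4 in *hlr1* at 6 h, and at 13.9 to 16.1 and 11.7 to 15.9 at 96 h. The difference between these times passed the adjusted p at under 2-fold in both strains (−0.60, SE 0.19, adjusted p = 0.0199 and −0.45, SE 0.17, adjusted p = 0.0278). The H3-like gene *g5195* was at 191 to 225 CPM in the 6 libraries of 6 h and, more scattered, at 85.4 to 301 in the dark. Its log2 fold change from dark to 6 h was 0.10 (SE 0.35) in WT and −0.01 (SE 0.17) in *hlr1*.

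The H3 gene *g8108* differed in its course from its neighbour *g8107*, in WT only after 1 h. The H4 gene *g8107* was at 93.6, 67.7 and 70.0 CPM in the WT dark libraries, at 186, 105 and 138 after 1 h and at 71.9, 54.2 and 48.8 after 6 h. Its *hlr1* libraries were at 98.9, 118 and 77.0, at 198, 116 and 111, and at 46.7, 57.9 and 49.8 CPM. In WT *g8108* was at 101, 49.5 and 39.0 CPM in the dark, at 187, 123 and 81.8 after 1 h, at 209, 206 and 204 after 6 h, and from there at 192 to 219. In *hlr1* this H3 gene was at 219, 185 and 152 CPM in the dark, at 77.8, 68.3 and 137 after 1 h, at 199, 200 and 195 after 6 h and from there at 188 to 243. The WT dark libraries were the low ones and did not overlap with the WT libraries of 6 h, while the *hlr1* dark libraries spanned the values of 6 h. The rise in WT was called (log2 fold change 1.72, SE 0.31, adjusted p = 0.00837) under every alternative tried. In *hlr1* the log2 fold change was 0.36 (SE 0.22, adjusted p = 0.260). The difference between these changes was −1.67 (SE 0.40, unadjusted p = 0.0014, adjusted p = 0.979 in edgeR). DESeq2 called it (adjusted p = 0.0206), as did edgeR without replicate a of the WT dark group (adjusted p = 0.0333). The adjusted p was over 0.05 under every other alternative, 0.208 in edgeR without the dark libraries that stand apart.

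The CENP-A-like gene *g7513* was at 59.3, 65.5 and 114 CPM in the WT dark libraries, at 170, 138 and 140 after 6 h and at 103, 91.2 and 104 after 96 h. The *hlr1* libraries were at 81.3, 87.9 and 96.4, at 154, 146 and 171, and at 90.9, 97.7 and 95.6 CPM. The 6 libraries of 6 h were above all 12 libraries of the dark and of 96 h. Those of 1 h were already near them, at 117, 141 and 147 CPM in WT and at 140, 180 and 124 in *hlr1*. The rise to 6 h was called in *hlr1* (log2 fold change 1.12, SE 0.15, adjusted p = 0.00273) and was 0.85 (SE 0.34, adjusted p = 0.108) in WT, a difference of −0.04 (SE 0.40, adjusted p = 1). Without the dark libraries that stand apart it was called in WT and not in *hlr1*. The decline to 96 h passed the adjusted p at under 2-fold in both strains (−0.62, SE 0.10, adjusted p = 1.58e-04 and −0.74, SE 0.08, adjusted p = 1.04e-08).

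Of the 3 chaperones, ASF1 and CAF-1 were highest at 6 h and NAP1 was not. ASF1 (*g6784*), which hands H3 and H4 to other chaperones, was at 68.9, 55.7 and 24.3 CPM in the WT dark libraries, at 121, 118 and 108 after 6 h and at 47.3, 42.9 and 47.1 after 96 h. The *hlr1* libraries had 36.1, 67.3 and 50.9, at 102, 108 and 117, and at 42.4, 44.2 and 47.0 CPM. The libraries of 6 h were above those of the dark and of 96 h in both strains. It rose to 6 h by 1.22 (SE 0.35, adjusted p = 0.0431) in WT and 1.39 (SE 0.24, adjusted p = 0.00707) in *hlr1* on the log2 scale, and fell to 96 h by 1.37 (SE 0.10, adjusted p = 4.02e-08) and 1.30 (SE 0.09, adjusted p = 3.79e-12). The fall was called under every alternative, the rise in 7 of 12 alternatives in WT and 10 of 12 in *hlr1*. It was lost in WT without replicate b of the dark without any 1 of the 6 h libraries (adjusted p up to 0.141) or with the replicate block (adjusted p = 0.0712) and in *hlr1* without replicate a of the dark (log2 fold change 0.98).

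The large subunit of CAF-1 (*g5086*), which deposits H3 and H4 on newly made DNA, was at 11.04, 0.442 and 43.0 CPM in the WT dark libraries, at 103, 93.8 and 128 after 1 h, at 163, 163 and 169 after 6 h, and at 60.4, 74.1 and 70.9 after 96 h. In *hlr1* it was at 0.732, 8.20 and 16.6, at 58.1, 116 and 76.3, at 148, 163 and 165, and at 76.6, 73.9 and 73.8 CPM. After 144 h it was at 36.1 to 42.6 CPM in WT and 47.1 to 51.1 in *hlr1*. All dark libraries were below all later ones except those of 144 h in WT, which replicate c of the WT dark group slightly exceeded. From dark to 6 h the log2 fold change was 4.58 (SE 0.85, adjusted p = 0.00920) in *hlr1*, which was called under all 12 alternatives, and 3.12 (SE 1.17, adjusted p = 0.0950) in WT, which was called without replicate c or replicate b of the dark, by DESeq2, with library totals and with all libraries in 1 fit. Its fall from 6 h to 96 h was called in both strains (−1.30, SE 0.10, adjusted p = 4.45e-08 and −1.10, SE 0.08, adjusted p = 4.13e-12). With all libraries in 1 edgeR fit that call was lost in both (adjusted p = 0.438 and 0.603), and the other alternatives kept it. NAP1 (*g5694*) was at 130 to 206 CPM in the WT dark libraries and 88.6 to 104 after 6 h (log2 fold change −0.84, SE 0.19, adjusted p = 0.0187), and in *hlr1* at 105 to 215 and 109 to 115 (−0.34, SE 0.23, adjusted p = 0.296). Relative to library totals alone, the WT dark and 6 h libraries of NAP1 overlapped, so its fall in WT depends on the scaling.

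**Figure D2:**
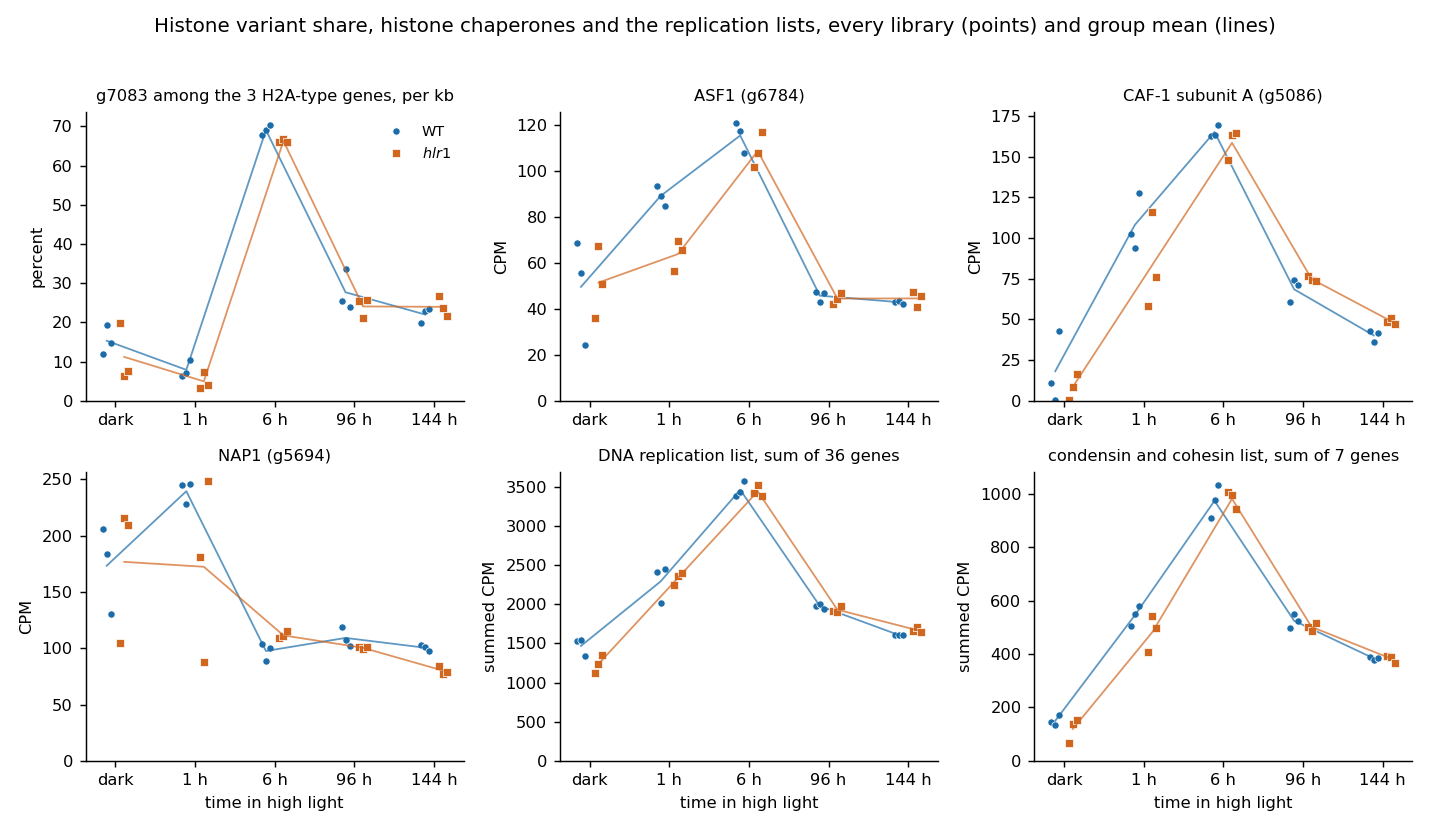
Share of the H2A.V-like gene g7083 in the 3 H2A-type genes (percent, per kb of span), levels of the 3 histone chaperones (CPM) and summed levels of the DNA replication and the condensin and cohesin lists (CPM) by time, for WT (blue circles) and hlr1 (orange squares), 1 point per library, lines through the means of 3. Except for NAP1, each is highest in the libraries of 6 h, where g7083 makes up 66.0 to 70.4% of the H2A-type genes.

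Given beside these genes are 2 further lists, chosen because new DNA needs new nucleosomes. A link between the lists and the members was not tested. The summed level of 36 DNA replication genes (MCM, ORC, GINS, polymerases, primase, clamp, ribonucleotide reductase) was 1334 to 1538 CPM in the WT dark libraries, 2023 to 2447 after 1 h, 3382 to 3573 after 6 h, 1943 to 2010 after 96 h and 1604 to 1606 after 144 h. In *hlr1* it was 1123 to 1352, 2252 to 2401, 3383 to 3530, 1897 to 1982 and 1642 to 1712 CPM. The condensin and cohesin list of 7 genes also holds *g3182*, described as structural maintenance of chromosomes 6 and not as a part of either complex. The summed level of this list was 133 to 173, 504 to 581, 908 to 1034, 497 to 551 and 376 to 389 CPM in WT and 66.7 to 153, 407 to 543, 943 to 1006, 488 to 516 and 366 to 393 CPM in *hlr1*. Both sums were highest at 6 h in both strains. In WT 9 of 36 replication genes were called higher at 6 h than in the dark and 2 lower, in *hlr1* 13 and 0, beside 8.94% of all genes higher and 16.7% lower in WT and 12.7% and 13.1% in *hlr1*. With library totals the replication genes gave 16 higher and 0 lower in WT and 15 and 0 in *hlr1*. The condensin and cohesin list gave 6 of 7 higher in WT and 4 of 7 in *hlr1* (6 and 5 with library totals), and none lower under either scaling. The ribonucleotide reductase subunits *g1069* (log2 fold change 7.87 in WT and 6.84 in *hlr1*) and *g7568* (5.35 and 5.39) were among those called higher in both strains. In the dark *g1069* had only 10, 0 and 0 counts in WT and 0, 10 and 17 in *hlr1*, so the size of its fold changes is uncertain. Whether the share of dividing cells differed between the times was not measured. In bulk RNA, fewer cells that carry a transcript and less of it per cell cannot be told apart.

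Across all members, 6 h of HL against the dark gave calls at about the rate of other genes. In WT 6 of 71 members tested (8.45%) were higher and 11 (15.5%) lower at an adjusted p under 0.05 and over 2-fold, where 8.94% of the 9461 genes tested were higher and 16.7% lower. In *hlr1* 7 of 70 (10%) were higher and 8 (11.4%) lower, where 12.7% of 9446 genes were higher and 13.1% lower. Of these, 4 were higher and 7 lower in both strains. The split depends on scaling. With library totals the median log2 fold change of all genes moved from 0.10 to 0.82 in WT and from 0.45 to 0.77 in *hlr1*, and the members gave 18 higher and 2 lower in WT and 12 higher and 4 lower in *hlr1*, beside 1778 higher and 813 lower and 1705 higher and 912 lower of all genes. The median over the members with TMM was −0.05 in WT and 0.27 in *hlr1*, against the 0.10 and 0.45 of all genes. Leaving out single libraries gave 7 to 24 members called in WT and 8 to 27 in *hlr1*. The low counts came without any 1 of the WT libraries of 6 h (7 each) or without replicate a or b of the *hlr1* libraries of 6 h (8 each). The highest came without replicate c of the WT dark group (24) and without replicate a of the *hlr1* dark group (27). Library totals ended the calls of *g1454*, *g2481*, *g2637*, *g3984*, *g472*, *g4886*, *g677*, *g6776* and *g7767* in WT and of *g2637*, *g3649*, *g472* and *g7767* in *hlr1*. Without the libraries that stand apart, WT gave 11 members higher and 13 lower, with 16 of the 17 calls retained (*g3984* was lost), and *hlr1* gave 14 higher and 13 lower, with 12 of the 15 retained (*g6396*, *g6784* and *g7513* were lost). The calls among all genes were then 3606 of 9584 in WT and 4825 of 9618 in *hlr1*. In WT, 6 of the 17 members were called in each of the leave-one-out fits (*g7083*, *g8108*, *g2637*, *g6776*, *g7766*, *g8476*), and in *hlr1* 6 of the 15 (*g7083*, *g5086*, *g677*, *g6776*, *g7766*, *g7767*).

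**Figure D3:**
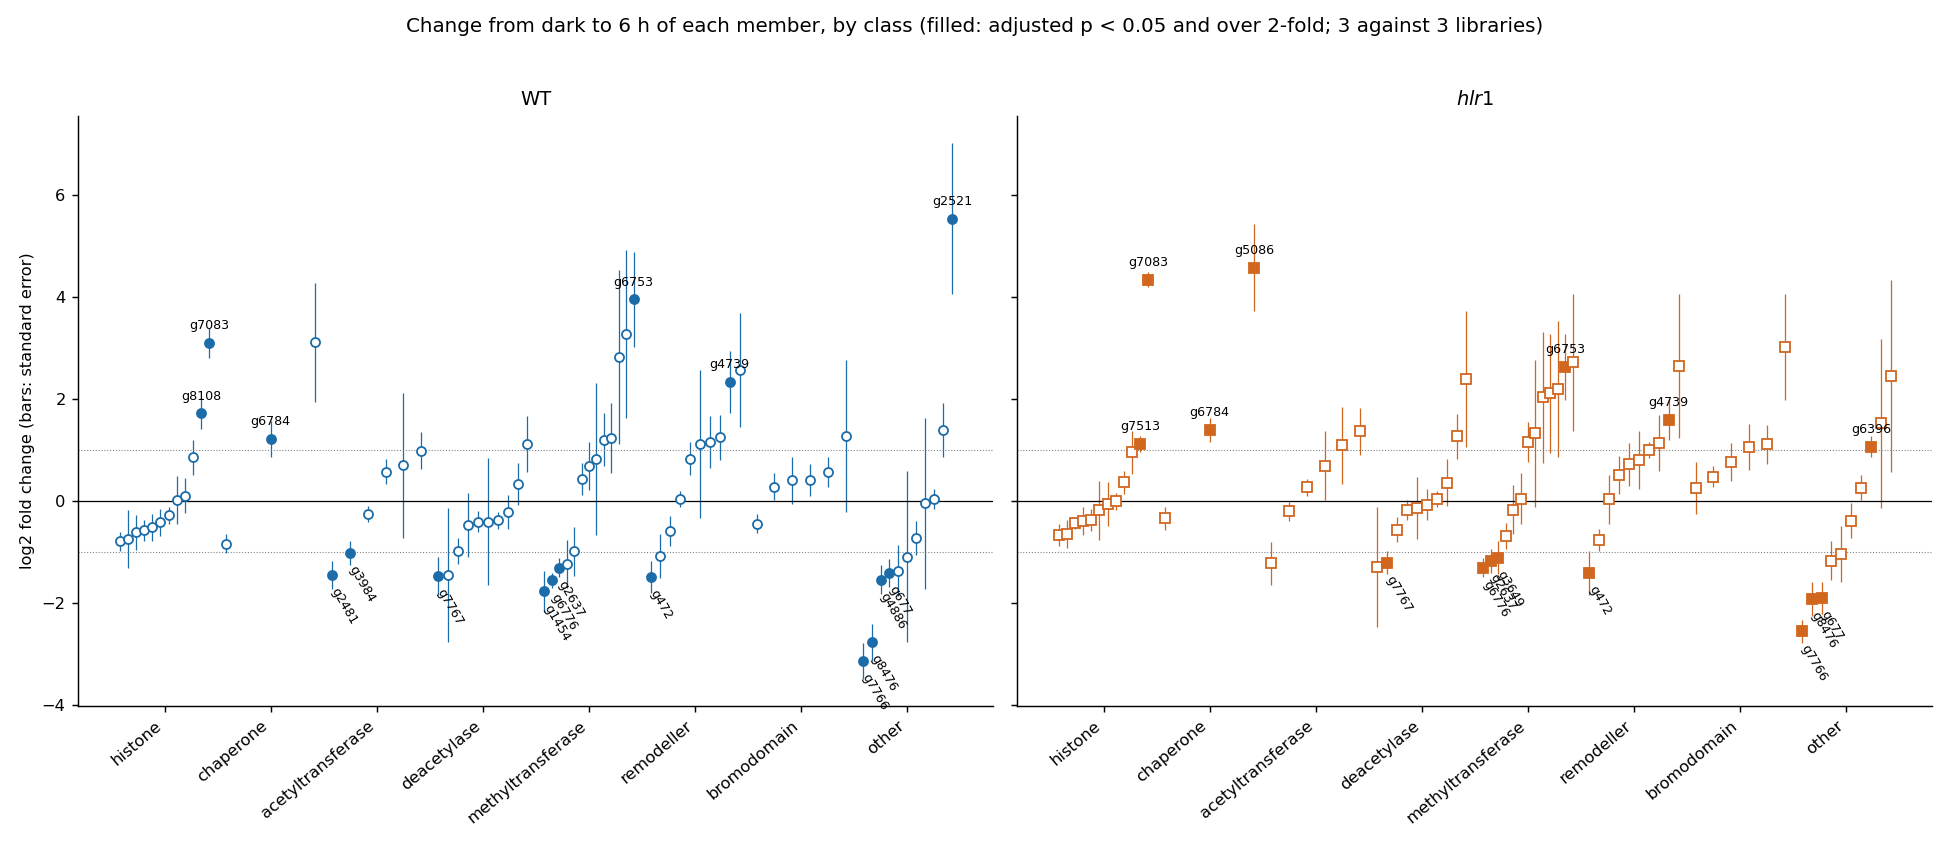
Log2 fold change from dark to 6 h of high light (y axis, bars show the standard error) of each member tested, by class (x axis), in WT (left) and hlr1 (right), 3 against 3 libraries. Filled and named members passed an adjusted p under 0.05 and a 2-fold change, 17 in WT and 15 in hlr1, and dotted lines mark 2-fold.

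Among the 13 methyltransferases the 6 h samples gave 1 higher and 3 lower calls in each strain, and with library totals 2 higher and 0 lower in WT and 2 higher and 1 lower in *hlr1*. ASH1L (*g6753*), in animals a methyltransferase of H3 lysine 36, was at 14.9, 15.5 and 0.307 CPM in the WT dark libraries and at 157, 159 and 163 after 6 h, and in *hlr1* at 46.9, 9.68 and 17.6 and at 134, 131 and 133. The groups of dark and 6 h lay far apart in both strains, with log2 fold changes of 3.96 (SE 0.93, adjusted p = 0.0217) and 2.63 (SE 0.65, adjusted p = 0.0264). Each was called in 8 of 12 alternatives and lost in the fits without replicate a of the WT dark group or replicate c of the *hlr1* dark group, and without any 1 library of 6 h of the strain concerned.

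DOT1 (*g6776*), the methyltransferase of H3 lysine 79, was the most abundant methyltransferase gene. It was at 434, 370 and 433 CPM in the WT dark libraries, at 240, 228 and 165 after 1 h and at 144, 143 and 141 after 6 h. Those of *hlr1* were at 569, 454 and 522, at 174, 316 and 196 and at 165, 156 and 192 CPM. The libraries of 6 h were below all dark ones in both strains. It fell by 1.56 (SE 0.15, adjusted p = 5.70e-04) in WT and by 1.32 (SE 0.19, adjusted p = 0.00337) in *hlr1* on the log2 scale. With library totals the change in WT was −0.84 and was no longer called.

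The gene *g2637*, described as a SET domain protein and holding a PWWP domain (a reader of methylated chromatin), was at 258, 196 and 258 CPM in the WT dark libraries and at 88.9, 94.2 and 109 after 6 h, and in *hlr1* at 408, 268 and 378 and at 120, 128 and 138. It was lower at 6 h in every library, with log2 fold changes of −1.31 (SE 0.19, adjusted p = 0.00316) and −1.18 (SE 0.23, adjusted p = 0.0114), and with library totals −0.59 in WT and −0.87 in *hlr1*, neither called. The SET domain gene *g1454* was called lower in WT alone (−1.78, SE 0.40, adjusted p = 0.0185) and ASH2 (*g3649*), a partner of H3 lysine 4 methyltransferases, in *hlr1* alone (−1.11, SE 0.32, adjusted p = 0.0416). For no member did the change from dark to 6 h differ between strains in edgeR's test.

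The acetyltransferase genes gave 2 lower calls in WT and 0 in *hlr1*, and the deacetylase genes 1 lower call in each, but with library totals the acetyltransferases gave 2 higher and 0 lower in WT and 1 higher and 0 lower in *hlr1*, and the deacetylases 0 in WT and 1 higher in *hlr1*. TAF1 (*g1400*), a subunit of the general transcription factor TFIID, had a log2 fold change of 0.99 (SE 0.36, adjusted p = 0.0888) in WT and 1.37 (SE 0.46, adjusted p = 0.0676) in *hlr1*, and was called higher in both strains with DESeq2, with library totals, with all libraries in 1 fit and without the libraries that stand apart. Lower in WT were EAF6 (*g2481*), a subunit of MYST acetyltransferase complexes, at −1.46 (SE 0.27, adjusted p = 0.00916) and a MYST family acetyltransferase (*g3984*) at −1.02 (SE 0.24, adjusted p = 0.0211), of which the latter was called in 1 of 12 alternatives. A gene of the deacetylase superfamily (*g7767*) was lower in both strains (−1.48, SE 0.38, adjusted p = 0.0287 and −1.21, SE 0.22, adjusted p = 0.00893). It follows 114 bp from *g7766*, on the same strand, whose protein match carries the same description but whose conserved domain is a metallo-beta-lactamase fold.

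The gene *g7766* was at 302, 228 and 492 CPM in the WT dark libraries, at 230, 209 and 194 after 1 h and at 43.1, 40.8 and 35.7 after 6 h. The *hlr1* levels were 345, 419 and 577, at 261, 218 and 299 and at 55.4, 50.1 and 77.3 CPM. No library of 6 h reached the dark or 1 h values. It fell by 3.14 (SE 0.35, adjusted p = 0.00119) in WT and by 2.56 (SE 0.23, adjusted p = 4.88e-04) in *hlr1* on the log2 scale, under every alternative. The HDAC1 genes and the BRPF1-like gene, the most abundant of the deacetylases and acetyltransferases, were not called. The acetyltransferase gene next in level, *g3984*, was called lower in WT, as given above. The pair of HDAC1 genes was at 121 to 131 CPM (*g2870*) and 99.7 to 107 CPM (*g9752*) in WT at 6 h and at 128 to 186 and 118 to 152 in the dark. The BRPF1-like gene *g3638*, a scaffold of acetyltransferase complexes, was at 166 to 167 and at 161 to 217 CPM.

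Of the 10 remodellers, 1 was higher and 1 lower at 6 h, the same ones in both strains, while library totals gave 4 higher and 0 lower in WT and 2 higher and 0 lower in *hlr1*. The RAD16-like gene *g4739*, in yeast a helicase of nucleotide excision repair, was at 11.9, 4.42 and 16.6 CPM in the WT dark libraries and at 53.8, 60.7 and 55.6 after 6 h, and in *hlr1* at 16.4, 18.3 and 31.0 and at 50.8, 45.4 and 63.1. These groups did not overlap, and in WT it then lay at 56.5 to 79.1 CPM to the end. Its log2 fold change was 2.33 (SE 0.60, adjusted p = 0.0294) in WT and 1.59 (SE 0.40, adjusted p = 0.0279) in *hlr1*. The SMARCAD1-like gene *g472* was lower in both strains, with log2 fold changes of −1.50 (SE 0.31, adjusted p = 0.0133) and −1.42 (SE 0.43, adjusted p = 0.0491). Of 12 alternatives, *g4739* was called in 8 in WT and 7 in *hlr1*, and *g472* in 8 and 5. The most abundant, the CHD7-like gene *g7983*, was at 373 to 469 CPM at 6 h and 370 to 415 in the dark in WT, and the CHD3/4-like gene *g751* at 83.9 to 101 and 82.6 to 212. In *hlr1*, *g7983* was at 407 to 418 CPM at 6 h and 176 to 319 in the dark, and *g751* at 90.8 to 105 and 183 to 230. There *g7983* was called higher with library totals, with the replicate block, and without replicate b or c of the dark or replicate c of 6 h. With all libraries in 1 fit *g751* was called lower in *hlr1*. With TMM and all 3 libraries per group, edgeR called no bromodomain gene. With library totals 3 of 6 were called higher in WT (*g1234*, *g5595* and *g7772*) and 1 in *hlr1* (*g7772*). In *hlr1*, *g6036* was also called higher without replicate a of the dark, and DESeq2 called *g6036* and *g7772* higher. The most abundant bromodomain genes, *g1716* (GTE1-like) and *g5595* (BDF1-like), were at 194 to 198 and 206 to 231 CPM in WT at 6 h against 233 to 314 and 89.1 to 210 in the dark.

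The 11 members with other annotation held 5 of the 17 calls in WT and 4 of the 15 in *hlr1*. Lower in both strains, beside *g7766*, were *g8476*, with a match to a kinase of the selenocysteine tRNA (−2.77, SE 0.36, adjusted p = 0.00219 and −1.92, SE 0.34, adjusted p = 0.00727), and *g677*, with a match to the ribosome assembly factor neuroguidin (−1.41, SE 0.27, adjusted p = 0.0104 and −1.91, SE 0.32, adjusted p = 0.00617). An ESCRT-III gene (*g4886*) was lower in WT (−1.55, SE 0.29, adjusted p = 0.00903). The splicing-associated acinus gene (*g6396*) was called higher in *hlr1* (1.06, SE 0.20, adjusted p = 0.0100) and in 6 of 12 alternatives. That call was lost, among others, without replicate a of the dark, which stands apart. The gene *g2521* had 3, 0 and 0 counts in the WT dark libraries and 53, 85 and 115 after 6 h (adjusted p = 0.0337), 73.7 times as many relative to the library totals, with a 95% exact interval of 24.9 to 360 that covers counting error only. In *hlr1* 1 of 3 dark libraries held 65 counts of it, about as many as those of 6 h, and it was not called. The most abundant of this group, *g6644* and the HU-like gene *g8479*, were not called.

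The first hour of HL gave no call among the members in either strain, and few among all genes. Of 68 members tested in each strain, 0 passed in edgeR, where 0.978% of 8997 genes were higher and 2.13% lower in WT, and 0.687% of 8736 genes were higher and 1.77% lower in *hlr1*. An unadjusted p under 0.05 was found for 13 members in WT and 10 in *hlr1*. DESeq2 called 2 members in WT (*g3649* and *g4739*) and 3 in *hlr1* (*g3649*, *g5086* and *g6776*). Without replicate c of the WT dark group edgeR called 4 (*g3649*, *g4739*, *g5086*, *g7513*), and without replicate b of *hlr1* at 1 h it called 1 (*g6776*). The log2 fold change of CAF-1 (*g5086*) was 2.50 (SE 1.06, adjusted p = 0.292) in WT and 3.45 (SE 1.00, adjusted p = 0.137) in *hlr1*.

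From 6 h to 96 h of HL the H2A.V-like gene, ASF1 and CAF-1 fell in both strains, and few other members were called. In WT 3 of 71 members were lower and 2 higher, where 3.95% of 9766 genes were lower and 9.22% higher. In *hlr1* 3 were lower and 1 higher, where 4.3% of 9778 genes were lower and 9.53% higher. The 3 lower members were the same in both strains, *g7083*, ASF1 and CAF-1, with the values given above. The higher ones were not chromatin proteins by their domains. The glycerol channel gene *g5058* was at 0.525, 1.40 and 2.02 CPM in WT after 6 h and at 18.0, 26.4 and 15.6 after 96 h (log2 fold change 3.87, SE 0.39, adjusted p = 9.61e-07), and in *hlr1* at 0.650, 0 and 0.380 and at 12.7, 17.8 and 16.4 (5.46, SE 0.42, adjusted p = 1.79e-11). The match of *g1595* is KTI12, a factor of the Elongator complex, and it was higher in WT (1.30, SE 0.25, adjusted p = 6.67e-04), with 0.98 (SE 0.16, adjusted p = 1.30e-05) in *hlr1*.

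**Figure D4:**
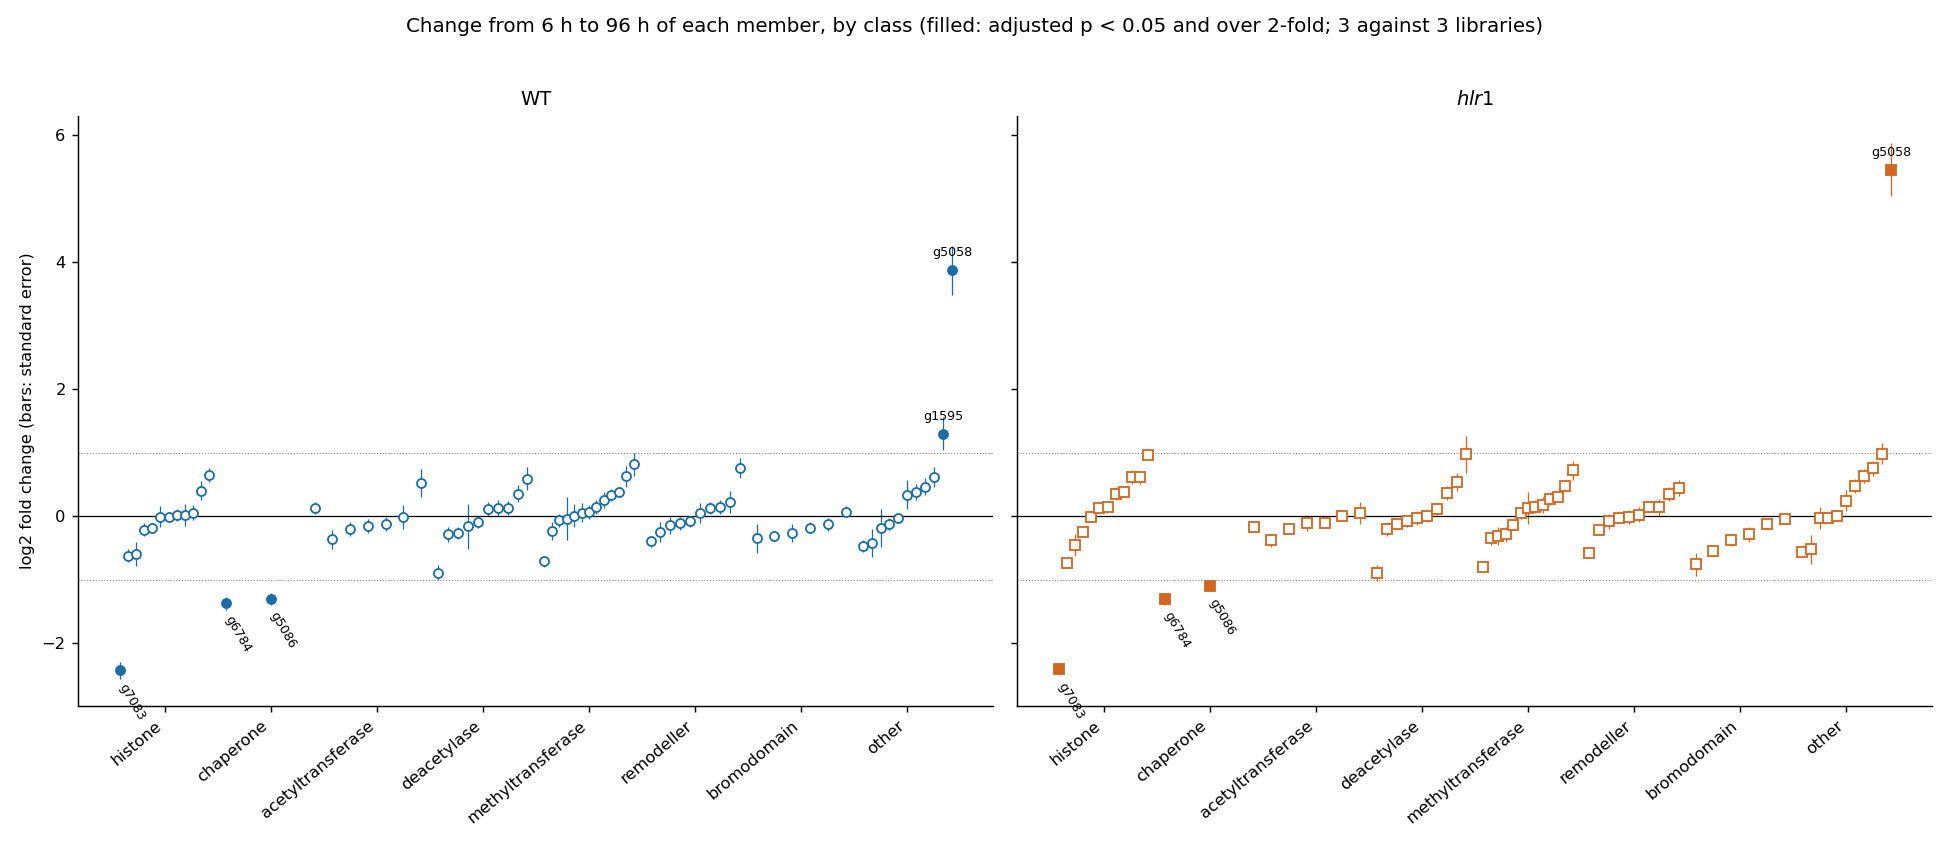
Log2 fold change from 6 h to 96 h of high light (y axis, bars show the standard error) of each member, by class (x axis), in WT (left) and hlr1 (right), 3 against 3 libraries. Filled and named members passed an adjusted p under 0.05 and a 2-fold change, and g7083, g5086 and g6784 are the 3 lower ones in both strains.

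By the adjusted p alone, a rule added after the data were seen, 25 of 71 members differed between 6 h and 96 h in WT (14 higher, 11 lower) and 37 in *hlr1* (19 higher, 18 lower), against 43% and 53.2% of all genes. The median absolute log2 fold change of the members was 0.23 and 0.29, and that of all genes 0.31 in both strains. From 96 h to 144 h no member passed the 2-fold threshold, where 0.621% of 9819 genes were called in WT and 3.17% of 9807 in *hlr1*. DESeq2 also called 0. An unadjusted p under 0.05 was found for 11 members in WT and 25 in *hlr1*, and the adjusted p alone was passed by 3 members in WT and 13 in *hlr1*, against 9.47% and 16.8% of all genes. CAF-1 was among them in both strains, with a log2 fold change of −0.79 (SE 0.12, adjusted p = 8.12e-04) in WT and −0.63 (SE 0.09, adjusted p = 0.00490) in *hlr1*. The CENP-A-like gene was among them in *hlr1* (−0.52, SE 0.11, adjusted p = 0.0170).

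Between the strains no member was called at any time. Of 69 members tested in the dark and 69 after 1 h, 0 were called, where 0% of 8730 and 0% of 8944 genes were. After 6 h it was 0 of 70, where 0.286% of 9429 genes were called, and after 96 h and 144 h 0 of 71, where 0.418% of 9818 and 0.407% of 9817 were. DESeq2 also called 0 members at each time. An unadjusted p under 0.05 was found for 2, 3, 12, 16 and 17 members at the 5 times in order. The early comparisons had little precision, since the median SD of a member was up to 39.96% of the mean. The median absolute log2 fold change of the members fell from 0.43 in the dark to 0.11 after 6 h, 0.13 after 96 h and 0.15 after 144 h, against 0.47, 0.12, 0.12 and 0.19 over all genes. With all 30 libraries in 1 fit, *g7083* and *g8108* were called in the dark.

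By the adjusted p alone, 3 members differed after 96 h and 1 after 144 h, against 2.93% and 1.27% of all genes. ASH1L (*g6753*) was at 102, 104 and 93.6 CPM in WT and 77.1, 78.6 and 75.6 in *hlr1* after 96 h, and at 101, 81.2 and 83.2 against 51.2, 57.0 and 45.1 after 144 h. All *hlr1* libraries were below all WT ones at both times, and also after 6 h (134, 131 and 133 against 157, 159 and 163). The log2 fold change of *hlr1* against WT was −0.28 (SE 0.08, adjusted p = 0.118) after 6 h, −0.37 (SE 0.08, adjusted p = 0.0218) after 96 h and −0.79 (SE 0.13, adjusted p = 0.0228) after 144 h. Over 11 alternatives the adjusted p was under 0.05 in 5 at 96 h and in 6 at 144 h.

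The SET and PWWP gene *g2637* was at 132, 121 and 124 CPM in WT and 192, 169 and 179 in *hlr1* after 96 h, with no overlap and a log2 fold change of 0.52 (SE 0.08, adjusted p = 8.30e-04). At the other times it was 0.59 (SE 0.30) in the dark, 0.47 (SE 0.20) after 1 h, 0.40 (SE 0.10) after 6 h and 0.29 (SE 0.08) after 144 h, with adjusted p from 0.0667 to 1. The gene *g7766* was at 70.0, 46.7 and 71.0 CPM in WT and 95.5, 109 and 105 in *hlr1* after 96 h (0.72, SE 0.13, adjusted p = 0.00434), while after 144 h the groups overlapped (68.4 to 87.4 against 60.0 to 86.0). Of 11 alternatives, 10 left the adjusted p of either gene at 96 h under 0.05.

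**Figure D5:**
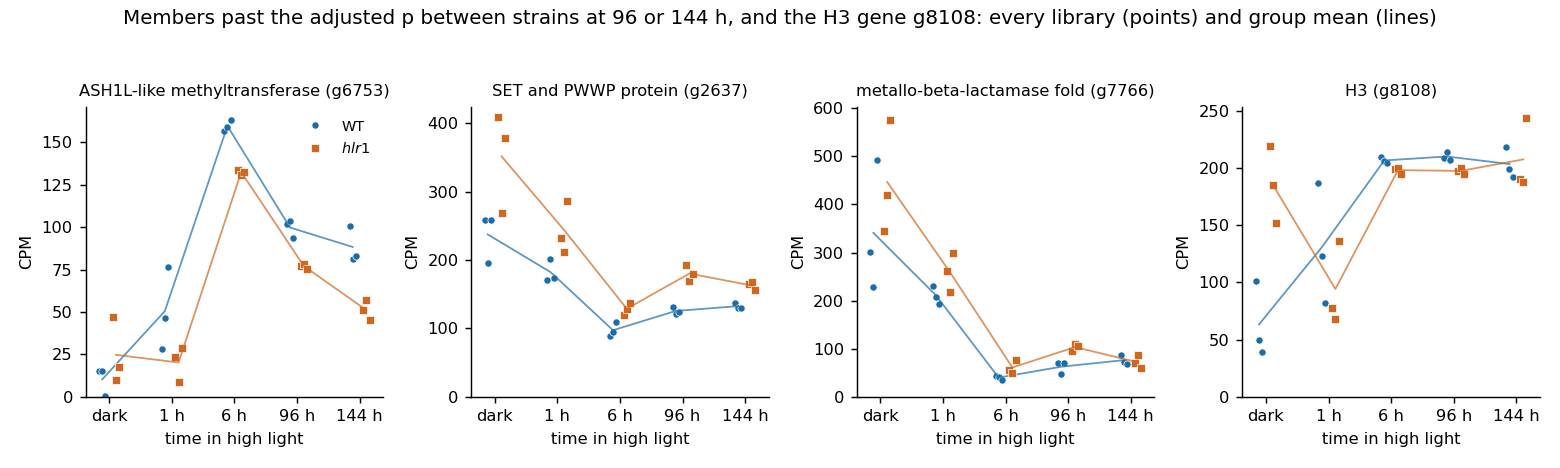
Level in CPM (y axis, from 0, own scale per panel) of the 3 members past the adjusted p between strains at 96 h or 144 h and of the H3 gene g8108 by time (x axis), for WT (blue circles) and hlr1 (orange squares), 1 point per library, lines through the means of 3. For g6753 the hlr1 libraries lie below the WT libraries at 6, 96 and 144 h, and for g8108 the strains are apart in the dark.

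The tests of whether a change over time differed between strains called no member. Of all genes they called 0% of 9330 from dark to 1 h, 0% of 9662 from dark to 6 h, 0.162% of 9883 from 6 h to 96 h and 0% of 9895 from 96 h to 144 h, each with 71 members tested in edgeR. An unadjusted p under 0.05 was found for 2, 5, 8 and 9 members. DESeq2 called *g8108* for dark to 6 h, as given above, and 0 members otherwise. The smallest unadjusted p at the late times were those of *g7766* from 96 h to 144 h (log2 difference −0.82, SE 0.22, adjusted p = 0.417) and of the H3 gene *g10112* from 6 h to 96 h (0.54, SE 0.16, adjusted p = 0.230).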

How the data were processed

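mRNA-Seq libraries of 10 strain and time groups were used, 3 per group. The authors mapped reads with TopHat2 2.0.12 and deposited raw read counts per gene, in 1 table per time. Which program counted the reads, on which build and with or without strand is not given in the sources. The same tables hold the authors' normalized signal and their comparison of the strains (fold change, log2 fold change, p and adjusted p), which were not used. Every column of counts was mapped to a sample.

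Counts were analysed in R 4.3.3 with edgeR 4.0.16: genes with enough counts (filterByExpr, minimum count 10), TMM scaling and the quasi-likelihood test, fitted for each comparison on its own groups, with Benjamini-Hochberg adjustment over all genes tested. The call of a gene needed over 2-fold change and an adjusted p under 0.05. An SE is that of the fitted log2 fold change, an SD that of 3 libraries. Members and lists were chosen with earlier results of these data known. Classes were assigned by hand from the annotation columns, after these but no values of the genes had been seen, in place of word patterns written earlier. Named were all histone genes, up to 6 called members per direction and comparison with the largest change, the 2 most abundant members of a class, at most 3 genes of a background list and *g8108*. Beyond that rule, NAP1, members named for losing or gaining a call and members with a strain difference under 2-fold were named after their values were seen.

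Alternatives were DESeq2 1.42.0, no filter, library totals, the replicate letter as a block, all 30 libraries in 1 fit, single libraries left out, and WT dark c, *hlr1* dark a and *hlr1* 1 h b left out together. Replicates differed by more than counting noise (chi-square per gene 3.39 to 208). The procedure was tested on simulated counts. No sequences of these genes were used here.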

Additional observations from a re-analysis of the deposited data

How the results depend on the processing

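Precision limits the dark and 1 h comparisons most, and only 3 libraries stand behind each group. The number of members called from dark to 6 h was 17 in WT and 15 in *hlr1*. It was 27 and 23 with DESeq2, 16 and 14 with no filter, 20 and 16 with library totals, 24 and 20 with all libraries in 1 fit and 24 and 27 without the libraries that stand apart. The calls among all genes moved too, to 3263 in WT and 3398 in *hlr1* with DESeq2 and 2362 and 2391 with no filter. They were 2591 and 2617 with library totals, 3402 and 3545 with all libraries in 1 fit and 3606 and 4825 without the libraries that stand apart. Leaving out 1 library gave 7 to 24 members in WT and 8 to 27 in *hlr1*, beside 1268 to 3606 and 1330 to 4825 of all genes. From dark to 1 h, where 0 members were called, DESeq2 gave 2 in WT and 3 in *hlr1*, 1 fit of all libraries 8 and 5, the fit without the libraries that stand apart 4 and 1, and single libraries left out 0 to 4 and 0 to 1. From 6 h to 96 h, 5 members in WT and 4 in *hlr1* became 2 and 2 in 1 fit of all libraries, which kept only *g7083* and ASF1. They became 25 and 37 by the adjusted p alone, which was added after the data were seen. By the same rule 3 and 13 were counted from 96 h to 144 h, where leaving out replicate b of *hlr1* at 144 h gave 1 (*g5058*) in place of 0, and 3 and 1 between the strains at 96 h and 144 h. With all libraries in 1 fit 2 members were called between the strains in the dark, and 1 (*g8108*) for the difference of the change from dark to 1 h. For dark to 6 h that difference gave 1 with DESeq2 and 0 to 1 with single libraries left out. Apart from the replicate block, the other alternatives kept each count within 1.5 times. The causes of these shifts were not tested.

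The letters a, b and c share only a name: in no comparison were all 3 correlations of same-letter deviations over 0.1. With the letter as a replicate block, 10 members in WT and 11 in *hlr1* were called from dark to 6 h, and 5 in *hlr1* from 6 h to 96 h.

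Directions were followed for called members and histones, and those that turned from dark to 6 h belong to histone genes without a call in the main fit. The scaling moved the histones as a class. Their median log2 fold change was −0.35 with TMM and 0.36 with library totals in WT, and −0.12 and 0.21 in *hlr1*. With library totals the log2 fold changes of the genes that turned were 0.12 for *g10111*, 0.12 for *g10112*, 0.42 for *g10115*, 0.0055 for *g10116*, 0.18 for *g4683* and 0.29 for *g8107* in WT, and 0.27 for *g10111*, 0.14 for *g10116* and 0.30 for *g5195* in *hlr1*. With the replicate block *g10111* was at 0.11 and *g5195* at 0.00033 in *hlr1*. Without the libraries that stand apart *g5195* was at −0.14 in WT. With single libraries left out, *g10111* ranged from −0.72 to 0.19, *g10116* from −0.78 to 0.23 and *g5195* from −0.23 to 0.070 in *hlr1*, and *g4682* from −0.097 to 0.53 and *g5195* from −0.14 to 0.58 in WT.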
